A study of Talpa occidentalis with 24 samples.

Results

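The regions described here are distal stretches of the Iberian mole genome (Talpa occidentalis) that carried the active enhancer state in the ovarian part of the female gonad and neither that state nor the promoter state in its testicular part or in the testis. Female moles of this species have ovotestes, in which ovarian and testicular tissue lie side by side. The regions were chosen by the chromatin states of the deposited tables. Active enhancer segments of at least 400 bp that lay more than 2 kb from all promoter and bivalent promoter segments were merged where they overlapped between tissues, and scaffolds 15 and 18 were left out. This gave 62589 merged distal regions on the talOcc4 assembly, of which 7515 (12% of all regions) were active in the ovarian part only. They are called ovarian-only regions below. Each of the 7515 was exactly 1 active enhancer segment of the ovarian part, and together they covered 6.66 Mb.

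Histone marks were profiled by chromatin immunoprecipitation and sequencing (ChIP-seq) in wild-type moles at postnatal day 7. The 3 tissues were the ovarian part of the ovotestis (OP), its testicular part (TP) and the male gonad, the testis. Each has 8 libraries, from 2 replicates of each of 4 marks (H3K4me1, H3K4me3, H3K27ac and H3K27me3), 24 in all. Whole fixed gonad tissue was used, so each value is an average over the cell types present. How many animals a library holds is not stated in the labels. The deposited table of a tissue joins its libraries into a single map of 7 named states in bins of 200 bp, so there are no replicates at this level and no difference between tissues was tested. The depth behind the calls is unknown. Intervals in brackets are Wilson 95% intervals, which cover counting only and treat neighbouring regions as independent.

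Enhancers are stretches of regulatory DNA that raise the transcription of genes, often from a distance, and their activity differs between cell types far more than that of promoters. H3K4me1 marks enhancers in general, and H3K27ac is added where they are in use, so that an enhancer with H3K4me1 alone is commonly called poised. H3K27me3 is laid down by Polycomb complexes at silenced developmental genes and their surroundings. In the mole ovotestis OP holds the germ cells, while TP lacks germ cells and contains androgen-producing cells. The tissues could not be checked against marker genes here, since gene positions on talOcc4 were not used, and genes beside the regions are not named for the same reason.

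The ovarian-only regions were short. Their median length was 800 bp, with quartiles of 400 and 1000 bp, and the longest spanned 7200 bp. Regions active in TP only (9296, called TP-only) had a median of 1000 bp, those active in the testis only (10573, called testis-only) also 1000 bp, and those active in all 3 tissues (18946) 2400 bp. A merged region of several tissues can only be as long as or longer than its parts, so the last value is not on equal terms. The active enhancer state covered 3.69% of all bases in OP, 5.12% in TP and 5.47% in the testis, and its part in the counts and lengths of these classes was not tested. At the length limit, 2001 ovarian-only regions (26.6%) were exactly 400 bp long, and 1744 regions of 200 bp that met the other criteria lay just outside it. At the promoter limit, 67 regions lay 2200 bp from such a promoter segment, and 53 regions at 2000 bp were just outside. A further 201 regions active in OP were kept out by a single 200-bp bin of active state in another tissue.

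In the other tissues the ovarian-only regions were mostly in the poised enhancer state. The rule bars the active states there, so the remaining states are what could vary. The poised state covered 88.6% of their bases in TP and 79.4% in the testis. Over all distal bases without active enhancer state, outside scaffolds 15 and 18, it covered 23.0% in TP and 22.8% in the testis. The undefined state took 9.26% of the bases of the ovarian-only regions in TP and 14.3% in the testis, against 66.5% and 62.9% of all such distal bases. The gap state took 0.0270% of their bases in TP and 0.00600% in the testis. Because whole tissue was used, fewer cells with an active enhancer and less mark per cell cannot be told apart.

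**Figure D1:**
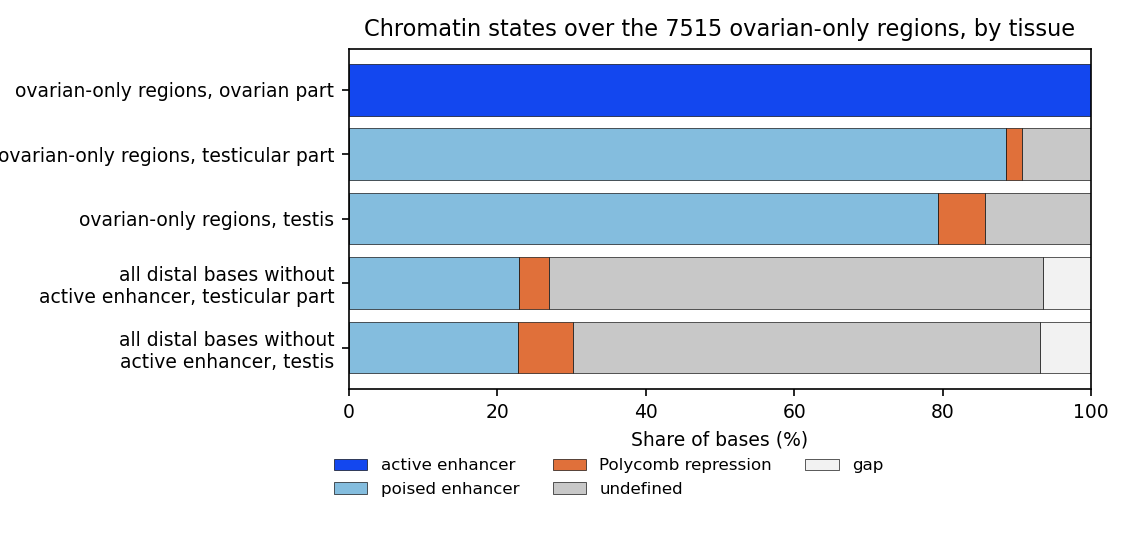
Share of bases (%) in each chromatin state over the 7515 ovarian-only regions in OP, TP and the testis (upper 3 bars), and over all distal bases without active enhancer state in TP and the testis (lower 2 bars). The poised state covers 88.6% of the regions in TP and 79.4% in the testis, against 23.0% and 22.8% of the distal bases.

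Counted by region, 6711 of the 7515 (89.3% [88.6 to 90.0]) were poised over at least 50% of their bases in TP and 6096 (81.1% [80.2 to 82.0]) in the testis. Of all merged distal regions without active state in the tissue, 90.2% were so poised in TP and 89.3% in the testis. These background shares include the ovarian-only regions themselves. The share in TP was close to the background, and the share in the testis was lower than it. By the same measure, testis-only regions were poised in 79.4% of cases in OP and in 89.2% in TP. For TP-only regions the shares were 92.1% in OP and 92.8% in the testis. The undefined state covered at least 50% of 686 ovarian-only regions (9.13%) in TP and of 1028 (13.7%) in the testis, against 9.07% and 8.34% of all merged distal regions inactive there. On the 16 scaffolds with at least 50 ovarian-only regions, the share poised ran from 86.0% to 92.6% in TP and from 74.8% to 85.6% in the testis, and it was lower in the testis on 16 of 16.

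Most regions had the same state in both other tissues. The poised state covered more than 50% of a region in TP and in the testis in 5627 cases (74.9%), and 5060 regions (67.3%) were poised over every base in both. Next came 637 regions (8.48%) poised in TP and undefined in the testis, and 291 (3.87%) had these states the other way round. A further 296 (3.94%) were poised in TP and under Polycomb in the testis, against 52 (0.692%) for the opposite. Undefined in both tissues were 271 (3.61%), and Polycomb in both 112 (1.49%). No poised base was found in either tissue in 393 regions, 5.23% [4.75 to 5.76] of the total. The same held for 87 of the TP-only regions (0.936% [0.759 to 1.15]) and for 534 of those active in the testis only (5.05% [4.65 to 5.48]).

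A small group of the ovarian-only regions lay under Polycomb repression in the other tissues. The Polycomb state covered at least 50% of 183 regions (2.44% [2.11 to 2.81]) in TP and of 490 (6.52% [5.98 to 7.10]) in the testis, against 1.36% and 3.21% of all merged distal regions inactive there. In 119 regions this was so in both tissues. The background shares include the ovarian-only regions themselves. These were 183 of the 279 distal regions under Polycomb in TP and 490 of the 683 in the testis. TP-only regions were under Polycomb by the same measure in 0.839% of cases in OP and in 1.37% in the testis. Regions active in the testis only were under Polycomb in 1.59% of cases in OP and in 0.785% in TP. Over all bases, the Polycomb state covered 4.99% in OP, 4.85% in TP and 7.94% in the testis. Relative to the distal bases without active enhancer state in the same tissue, Polycomb coverage of the ovarian-only regions was 0.538 times in TP and 0.857 times in the testis. For the testis-only regions it was 0.391 times in OP and 0.197 times in TP, and for the TP-only regions 0.179 times in OP and 0.177 times in the testis. The ovarian-only regions thus carried less Polycomb state than distal sequence in general, and, on this relative scale, more than the other single-tissue regions.

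The unscaled shares of regions were also compared scaffold by scaffold. On 16 of 16 scaffolds the share of ovarian-only regions under Polycomb was higher in the testis, where it had a median of 6.05% and ran from 3.74% on scaffold 1 to 12.9% on scaffold 17, than in TP, where the median was 2.14%. On 16 of 16 it was also higher in the testis than the share of testis-only regions under Polycomb in OP, which had a median of 1.51%. Within the testis it was higher than the share of TP-only regions on 16 of 16. In TP, the ovarian-only regions were under Polycomb more often than testis-only regions on 15 of 16 scaffolds. When the share of ovarian-only regions under Polycomb in TP was compared with other tissues, the order varied. It was higher than that of TP-only regions in OP on 16 of 16 scaffolds. The order was less even against testis-only regions in OP (higher on 12 of 16) and against TP-only regions in the testis (higher on 11 of 16). The scaffolds share the same 3 segmentations and are not replicates.

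**Figure D2:**
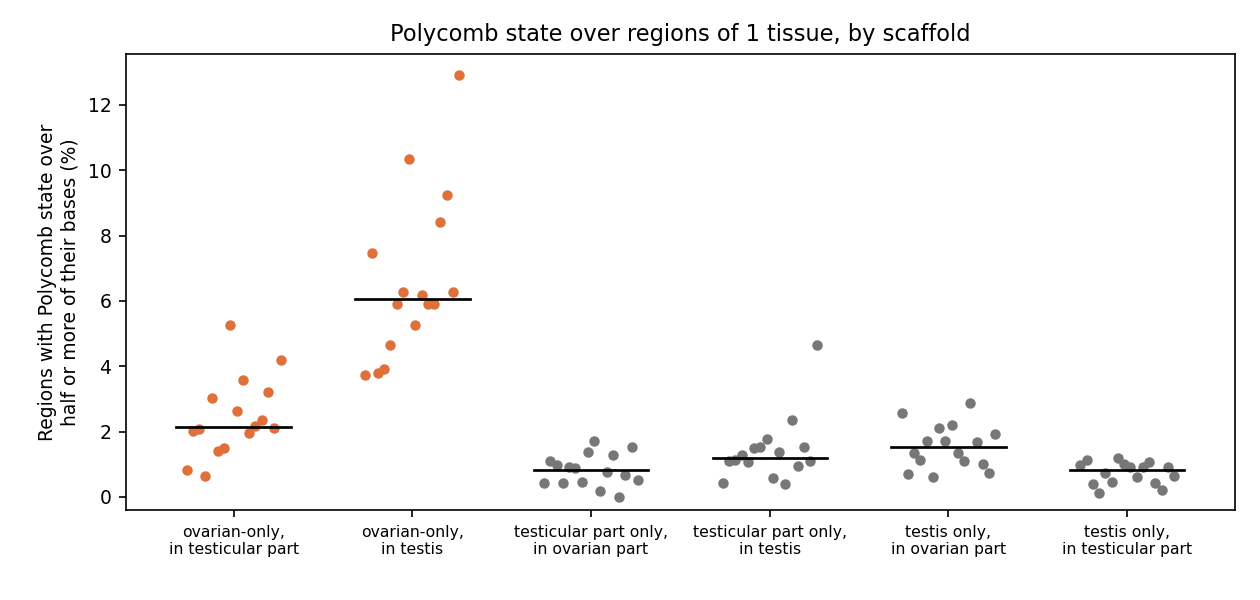
Share of regions (%) with the Polycomb state over at least 50% of their bases on the 16 scaffolds with at least 50 ovarian-only regions (1 point per scaffold, in scaffold order; the line is the median). The ovarian-only regions (orange) have medians of 2.14% in TP and 6.05% in the testis, above the medians of TP-only and testis-only regions (grey).

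The states in the other tissues were also compared between length classes. Regions of exactly 400 bp were poised over 85.4% of their bases in TP and over 78.4% in the testis. Regions of 1000 to 1800 bp (2248) were poised over 89.4% and 79.1%, in that order of tissues, and those of 2000 to 3800 bp (395) over 89.5% and 79.6%. The Polycomb state in the testis covered 6.65%, 6.47% and 5.60% in these 3 length classes. In TP it covered 2.92%, 1.91% and 1.55%, and the undefined state 11.7%, 8.70% and 8.97%, so that both were more common over regions of 400 bp than over those of 1000 to 3800 bp. Regions of 600 to 800 bp (2848) were under Polycomb over 2.40% of their bases in TP and undefined over 8.71%. The 23 regions of at least 4000 bp were poised over 79.8% of their bases in TP and 74.8% in the testis. In TP these 23 were under Polycomb over 2.07% and undefined over 18.1%, so the undefined share did not fall steadily with length.

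In OP itself the regions sat as islands of active state inside wider poised stretches. The poised state adjoined 7249 regions (96.5%) on both sides. By the rule, promoter and bivalent promoter segments could not adjoin a region. The run of active and poised bins that held a region had a median length of 6400 bp in OP. For TP-only regions in TP this median was 6200 bp, and for testis-only regions in the testis 8400 bp. Such a run held the whole ovarian-only region in 83.5% of cases in TP and in 74.0% in the testis. It then had a median length of 4600 bp in TP and 5000 bp in the testis. At 2 kb from the centre towards lower coordinates, the poised state was present at 57.5% of the regions in OP, 40.7% in TP and 39.1% in the testis, and at 10 kb at 38.8%, 30.6% and 30.5%. Since the regions were chosen as active segments of OP, the wider poised flanks in OP follow in part from the choice. The 490 regions under Polycomb in the testis looked different on their flanks. At 10 kb on the same side, the Polycomb state was present at 14.8% of them in OP, 22.4% in TP and 36.8% in the testis, against 3.39%, 4.76% and 8.72% for all ovarian-only regions. At their centres TP was poised in 65.1% of cases and under Polycomb in 23.7%. Of these 490 regions, 96 (19.6%) had a gap of at most 10 kb to a bivalent promoter segment of the testis, against 347 of all 7515 (4.62%). For bivalent promoter segments of OP the counts were 76 (15.5%) and 224 (2.98%). All 7515 include the 490. The 490 were chosen on the Polycomb state of the testis, so their Polycomb flanks there follow in part from the choice. The bivalent promoter calls of the testis come from the same segmentation as that choice.

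**Figure D3:**
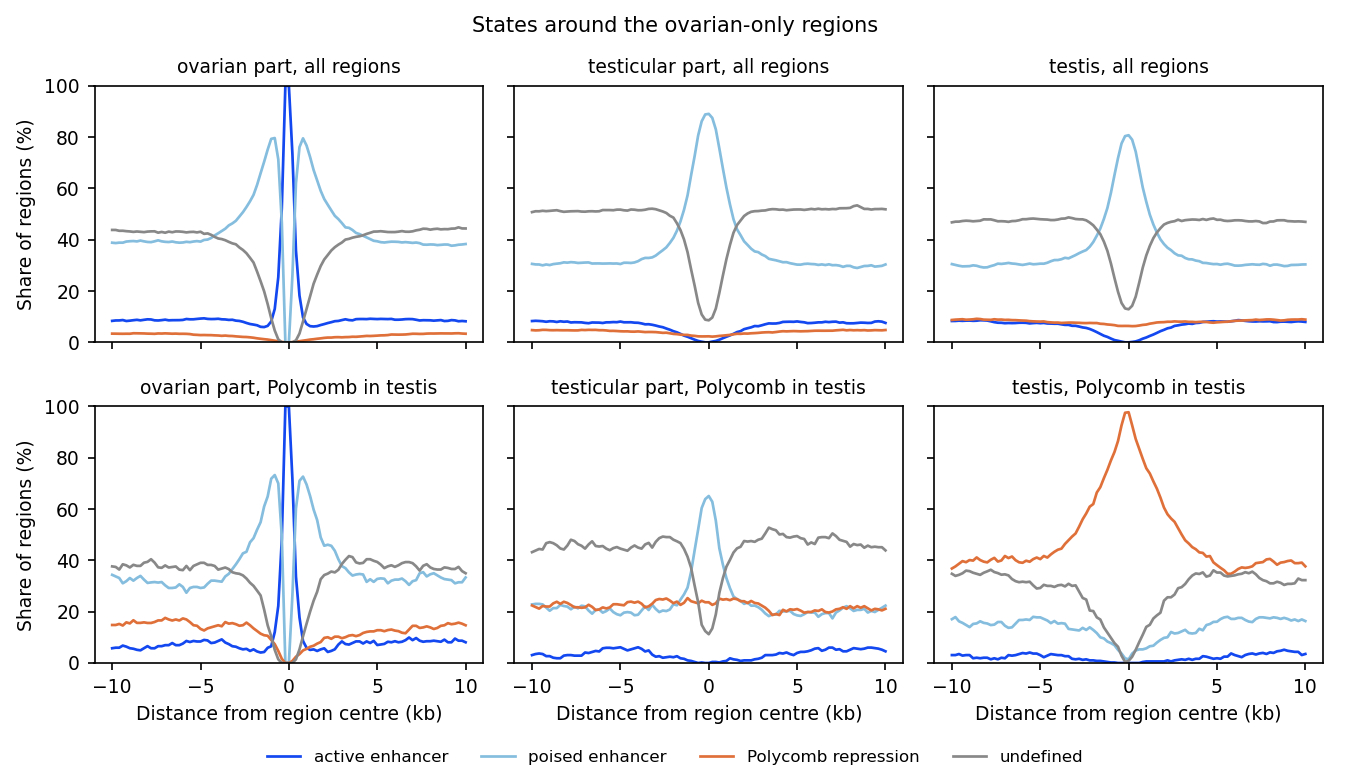
Share of regions (%) in the active enhancer, poised enhancer, Polycomb and undefined states against the distance from the region's centre (kb), in OP, TP and the testis. The upper row holds all 7515 ovarian-only regions and the lower row the 490 with Polycomb over at least 50% of their bases in the testis, of which 65.1% are poised at the centre in TP.

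The distance to active chromatin of the other tissues was also measured. The rule keeps such bases out of the regions themselves, so the gaps follow in part from the choice. The gap to the nearest active base had a median of 9000 bp in TP and 10000 bp in the testis. Only 65 regions (0.865%) adjoined an active base of TP and 55 (0.732%) one of the testis, while 580 (7.72%) and 538 (7.16%) had a gap of at most 1 kb. A gap of at most 10 kb was found for 3998 (53.2%) in TP and 3765 (50.1%) in the testis. For testis-only regions the median gap was 10400 bp to OP and 8000 bp to TP. TP-only regions had medians of 12800 bp to OP and 10800 bp to the testis. The active enhancer state covered 3.69% of all bases in OP, 5.12% in TP and 5.47% in the testis. Gaps to different tissues are therefore not on equal terms.

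Some of the ovarian-only regions lay in clusters. Of the 7515, 1811 (24.1% [23.1 to 25.1]) had another within 10 kb, and they formed 801 clusters of at least 2. Most clusters were small, with 660 pairs, 96 of 3 regions, 28 of 4, 12 of 5, 4 of 6 and 1 of 7. The same measure gave 23.5% [22.7 to 24.4] for the 9296 TP-only regions and 30.9% [30.0 to 31.8] for the 10573 testis-only regions. A class with more regions has more chances of a near neighbour, so these shares are not on equal terms. Within clusters the median gap was 3400 bp, and 199 of 1010 gaps (19.7%) were at most 1 kb. The distal region nearest to an ovarian-only region was again ovarian-only in 27.8% of cases [26.8 to 28.8], while such regions were 12% of all. The nearest region was also of the same class in 27.4% of cases for TP-only regions, against 14.9% of all regions, and in 30.7% for testis-only regions, against 16.9%. For ovarian-only regions it was active in both parts of the ovotestis in 10.5% of cases, against 7.18% of all regions, and active in TP and the testis in 7.32%, against 14.8% of all regions. It was active in all 3 tissues in 27.1%, against 30.3% of all regions. For testis-only regions, the nearest was ovarian-only in 7.93% of cases.

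**Figure D4:**
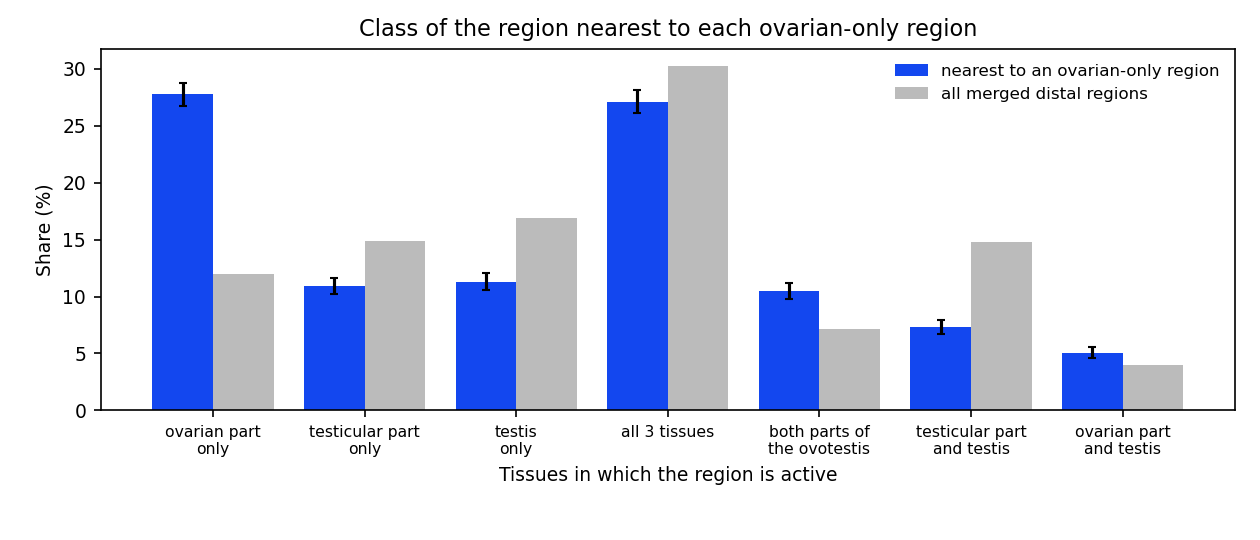
Share (%) of ovarian-only regions whose nearest distal region belongs to each class (blue, with Wilson 95% intervals) and share of each class among all 62589 merged regions (grey). Ovarian-only neighbours make up 27.8% against 12% of all regions, and neighbours active in TP and the testis 7.32% against 14.8%.

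Promoters near the regions were compared in the same way. The nearest promoter segment of at least 400 bp in OP lay at a median of 55400 bp, for the 7363 regions with such a segment on their scaffold. For 1404 of them (19.1% [18.2 to 20.0]) that segment held no promoter base in TP or the testis. Among the other classes active in OP, the share was 17.2% [16.1 to 18.3] for regions active in both parts of the ovotestis and 16.0% [14.6 to 17.5] for regions active in OP and the testis. It was 13.3% for TP-only regions, 12.0% for regions of the testis only and 13.5% for regions of all 3 tissues. Of all 15724 OP promoter segments of this length, 1830 (11.6%) held no promoter base in the other tissues. Nearness does not show which promoter an enhancer acts on, several regions can share a promoter, and the same ovarian segmentation gives both calls. No test of these differences was possible without replicates.

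On the 16 scaffolds with at least 50 of them, ovarian-only regions numbered between 2.54 per Mb on scaffold 6 and 5.63 per Mb on scaffold 17. Scaffold 17 was also highest when counted against the regions active in OP, of which 27.1% were ovarian-only, while scaffold 16 was lowest with 19.9%. Over all scaffolds this share was 22.5% (7515 of 33444).

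The 10 longest regions were between 5200 and 7200 bp. The longest lay on scaffold 5 at 125842801 to 125850000 and was poised over 72.2% and undefined over 27.8% in TP, and poised over 58.3% and under Polycomb over 33.3% in the testis. The equally long region on scaffold 17 at 7534401 to 7541600 was under Polycomb in both other tissues over part of its length, 33.3% in TP and 30.6% in the testis. On scaffold 4, 126399401 to 126406000 was poised over all of its 6600 bp in TP and over 90.9% in the testis. On scaffold 11, 76230001 to 76236600 was also fully poised in TP, but undefined over 60.6% in the testis. Scaffold 3 at 40104001 to 40110000 was poised over 96.7% in TP and 93.3% in the testis. The opposite of the scaffold 11 region was seen on scaffold 8 at 66092401 to 66098000, which was undefined over all of its 5600 bp in TP and fully poised in the testis. Scaffold 12 at 87039201 to 87044600 went the same way, with 40.7% poised in TP and 77.8% in the testis, as did scaffold 9 at 22249201 to 22254400, with 53.8% and 84.6%. The remaining long regions were on scaffold 6 at 30895201 to 30900800, with 75% poised in TP and 67.9% in the testis, and on scaffold 8 at 8272001 to 8277200, with 100% and 69.2%. Among the 10, only the first and the second carried any Polycomb state.

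The regions with the most bases under Polycomb in both other tissues included 4 that were almost wholly covered. Scaffold 8 at 6011801 to 6015200 was under Polycomb over 94.1% of its 3400 bp in TP and over all of it in the testis. Scaffold 8 at 13329601 to 13332000, scaffold 10 at 5456401 to 5458800 and scaffold 11 at 79277001 to 79278600 were under Polycomb over every base in both tissues, along 2400, 2400 and 1600 bp. The fifth was the long region on scaffold 17 already described, with 2000 bp under Polycomb in both.

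The 5 clusters with the most bases of ovarian-only regions lay on scaffolds 4, 12, 8, 5 and 14. The first, at 126378601 to 126406000 on scaffold 4, held 3 regions and was active enhancer over 67.2% in OP, 18.2% in TP and 8.03% in the testis. The active bases of the other tissues lay between the regions. The second, at 87026001 to 87057600 on scaffold 12, held 5 regions and was active over 48.1%, 1.9% and 3.8% in the same order of tissues, with 68.4% undefined in TP and 61.4% in the testis. On scaffold 8 at 66081201 to 66098000, 4 regions covered 58.3% of the stretch, which was undefined over 69.0% in TP and poised over 96.4% in the testis. On scaffold 5 at 125839201 to 125852600, 4 regions covered 70.1%. That stretch was poised over 76.1% in TP, and in the testis it was poised over 40.3% and under Polycomb over 37.3%. On scaffold 14 at 61044201 to 61061800, 4 regions covered 45.5%, and the stretch was poised over 61.4% in TP and 71.6% in the testis.

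The densest windows of 100 kb span more sequence than these clusters and were not compared with them. The window with the most, 11 regions, lay on scaffold 13 at 97400201 to 97500200 and was under Polycomb over 0.6% in OP, 2.0% in TP and 37.0% in the testis. Next, 27100201 to 27200200 on scaffold 14 held 10 regions and was under Polycomb over 10.2%, 9.0% and 28.0% in that order. On scaffold 17, 29500201 to 29600200 held 9 regions of 5400 bp in all within a stretch that was largely under Polycomb in every tissue, over 51.4% in OP, 62.2% in TP and 82.4% in the testis. Also on scaffold 17, 48300201 to 48400200 held 8 regions with little Polycomb state (0.2% in OP, 0% in TP and 2.6% in the testis) and was poised over 58.8%, 9.8% and 17.6%. Scaffold 1 at 140200201 to 140300200 held 7, and was under Polycomb over 3.0%, 8.0% and 13.2%. It stood first by scaffold number among 8 windows with 7 regions. These windows and clusters were picked for their content of ovarian-only regions, so their high active coverage in OP follows from the choice.

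**Figure D5:**
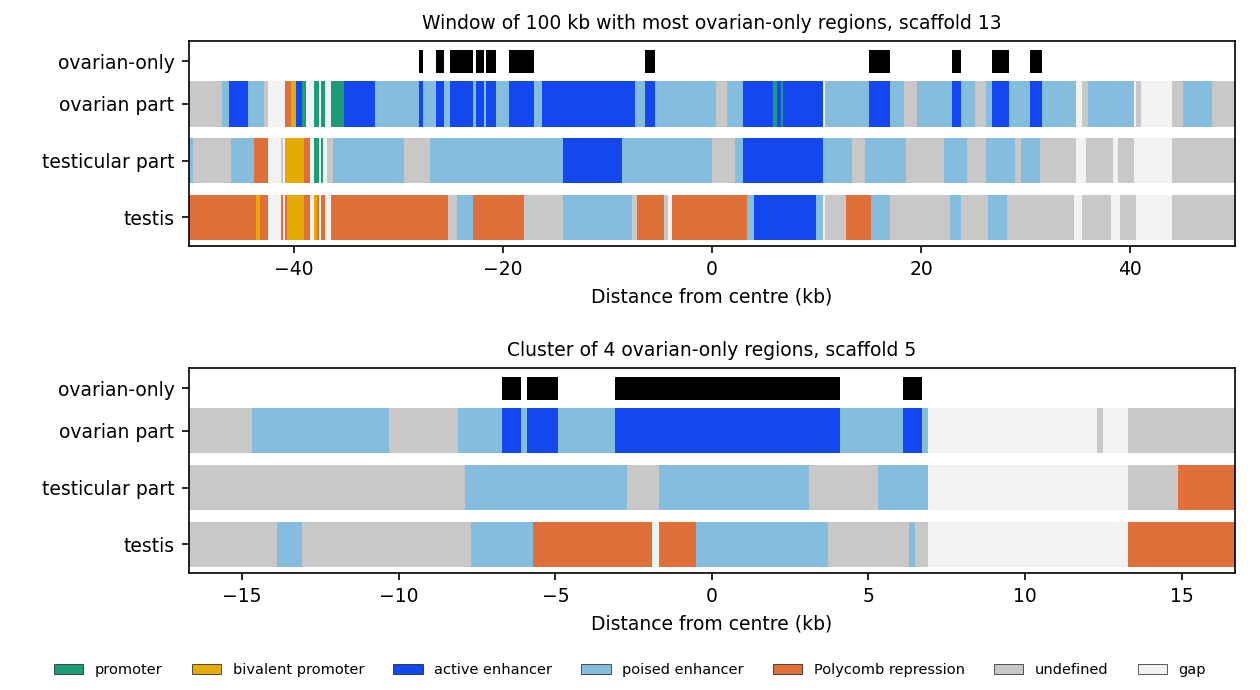
State maps of the 100-kb window with the most ovarian-only regions (scaffold 13, upper) and of the cluster of 4 regions on scaffold 5 with 10 kb on each side (lower), against distance from the centre (kb); black bars mark the ovarian-only regions and rows show OP, TP and the testis. The Polycomb state covers 37.0% of the upper window in the testis and 37.3% of the lower cluster in the testis.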

How the data were processed

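The authors deposited 1 chromatin state table per mole tissue, with 1 of 7 state names for each segment on talOcc4 and a score column that is 0 throughout (per the file headers and values, no counts or signal are given). The labels assign the 8 libraries of a tissue to its table. STAR 2.6.1d and the mouse build mm9 appear in the submitters' processing notes. Neither the tool behind the mole tables nor the marks behind each state are stated there. Depth is unknown.

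Segments were read into bins of 200 bp with Python 3.11.15 and numpy 2.4.6, and the rule was checked on a made-up genome with known regions. Gaps are between region edges. Regions count as clustered at gaps of at most 10 kb. Positions count from 1. Regions named in the text are the 10 longest, the 5 with most bases under Polycomb in both other tissues, the 5 clusters with most bases, and the 5 windows of 100 kb with most regions. The regions and measures were chosen with earlier results of these data known. The mouse tables and the gene models on talOcc3 were not used here. For 5 results, 8 alternatives were tried. No test was run.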

Additional observations from a re-analysis of the deposited data

How the results depend on the processing

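No paired analysis was possible because each tissue has 1 deposited segmentation that joins its replicates. For the same reason no replicate could be left out. Of 40 values under alternatives, 32 stayed within the limits set for them (1.5 times the count, or the Wilson interval of the share) and 8 moved. The minimum length mattered most. With 1000 bp, 2666 ovarian-only regions were found in place of 7515, of which 91.6% were poised over at least 50% of their bases in TP and 15.7% had another within 10 kb. With no minimum length, 87.8% were poised in TP and 80.0% in the testis, and 27.4% had another within 10 kb. When regions with an active base of another tissue within 1 kb were left out, 88.5% were poised in TP and 79.8% in the testis. The cause was not tested. The share under Polycomb in the testis stayed between 6.0% and 6.97% under all 8 alternatives. Depth limits the calls to an unknown extent.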

Other observations

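On the scaffolds that were left out, 44 further regions on scaffold 15 and 2 on scaffold 18 met the other criteria. Scaffolds under 1 Mb held 193 ovarian-only regions, 12.7% of the 1515 merged distal regions there, close to the share over all scaffolds.

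The surroundings of the ovarian-only regions, 50 kb on each side, were poised over 37.4% in OP, 29.6% in TP and 29.5% in the testis. The promoter state covered 0.923%, 0.736% and 0.704% of these surroundings in the same order of tissues, and the Polycomb state 3.52%, 4.81% and 8.92%. Around testis-only regions the Polycomb state covered 3.38% in OP, 3.06% in TP and 4.65% in the testis. The active enhancer state covered 7.39% of the surroundings of ovarian-only regions in OP, 7.32% in TP and 7.60% in the testis. Around testis-only regions it covered 5.61%, 8.28% and 11.5%. These shares are unscaled. Over all bases the active enhancer state covered 3.69% in OP, 5.12% in TP and 5.47% in the testis. The near-equal shares around ovarian-only regions are therefore not on equal terms between tissues. Against all bases, the active enhancer state was raised most in OP there, and most in the testis around testis-only regions. Only the region itself was left out of its surroundings, so other regions of the same class within 50 kb were counted. These contrasts, and the higher poised share in OP, therefore follow in part from the choice of regions.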
